A study of Mus musculus with 3 samples.

Results

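A set of 30 genes of cholesterol synthesis, sterol sensing, sterol movement inside the cell and cholesterol efflux were followed through C2C12 cells, out of 22706 genes in the deposited transcript files. The list follows known roles in the pathway, and its rule uses no measured value. It was, however, chosen with earlier results of these data known. Its counts beside all compared genes therefore describe the list and do not test it. C2C12 is a mouse myoblast line that can be turned towards bone by BMP2, a bone morphogenetic protein. The series holds 1 library for each of 3 groups. The first, called the BMP2 library here, is from mock-transfected cells titled DM + BMP2: DM is DMEM with 2% horse serum, and recombinant BMP2 was given at 100 to 300 ng/ml, with the dose of this library not stated. The other two are from untreated cells in growth medium (GM), DMEM with 20% FBS. One of these is labelled shKSRP, after a short hairpin RNA against KSRP, an RNA-binding protein that promotes mRNA decay and takes part in microRNA processing, and the other is from mock-transfected cells. All cells came from the same stock of the line. The sources used here do not say whether the transfected cells were a clone or a pool.

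Cells make cholesterol from acetyl-CoA through mevalonate, the isoprenoid farnesyl diphosphate, squalene and lanosterol. When the endoplasmic reticulum membrane is low in sterol, the escort protein SCAP carries the SREBP transcription factors to the Golgi, where they are cut and released to turn on genes of synthesis and uptake, and INSIG proteins hold this traffic back when sterol is plentiful. Oxysterols made from excess cholesterol activate the LXR receptors, which raise efflux transporters. Muscle and bone cells in culture can obtain cholesterol from serum lipoproteins or make it themselves.

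Levels are in FPKM, the fragments on a transcript per kilobase of its length, relative to all mapped fragments, as the authors' Cufflinks files give them, summed over the RefSeq transcripts of a gene and the transcripts that Cufflinks assembled at that locus in the same library. The ± after a level is the half-width of its deposited 95% interval and covers counting and assignment of fragments in 1 library, not the spread between cultures. With 1 library per group there is no replicate and no test. A gene is called higher or lower here when its FPKM + 1 differed by 2-fold or more (a log2 ratio of 1), a fixed rule of size, and genes were compared when they reached 1 FPKM in at least 1 library and had a RefSeq transcript of at least 300 nt. All 30 genes were found. Of these, 27 were among the 11463 compared genes, 26 were above 0 in all 3 libraries, and Hmgcs1 was listed at 0 in all 3.

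The interval widths correspond to 60.3 M (mega) fragments in the BMP2 library, 68.4 M in the shKSRP-labelled library and 61.9 M in mock. Khsrp, the gene for KSRP, was at 27.2 ± 0.67 FPKM in the BMP2 library, 28.4 ± 0.64 in the shKSRP-labelled library and 31.4 ± 0.85 in mock. Khsrp in the library labelled shKSRP was at 90.6% of its mock level, but 15.9 FPKM of the mock level lay on an assembled transcript. On RefSeq transcripts alone Khsrp was at 28.4 FPKM in the library labelled shKSRP and 15.5 in mock, 183% of the mock level. Neither value shows a strong loss of the targeted mRNA, and every direction drawn from that library carries this limit. All 5 myoblast markers (Myod1, Myf5, Des, Cdh15 and Itga7) were at 1 FPKM or more in every library, and they summed to 285 FPKM in the BMP2 library, 366 in the shKSRP-labelled library and 447 in mock. The single markers did not share 1 order. Cdh15 was at 5.02 FPKM in the BMP2 library, 31.1 in the shKSRP-labelled library and 38.3 in mock. Itga7 was at 35.9 FPKM in the BMP2 library, 67.0 in the shKSRP-labelled library and 90.1 in mock. In the same order of libraries, Des was at 218, 185 and 280 FPKM and Myod1 at 17.3, 34.8 and 30.7. Myf5 was at 9.09, 48.4 and 7.755 FPKM, lowest in mock. The 5 osteoblast markers summed to 76.7 FPKM in the BMP2 library, 18.9 in the shKSRP-labelled library and 32.0 in mock, with 4 of the 5 at 1 FPKM or more in the BMP2 library, 2 in each of the others and Ibsp at 0 in all 3. Bglap2 was at 43.0 FPKM in the BMP2 library, 4.29 in the shKSRP-labelled library and 23.2 in mock. In the same order, Runx2 was at 12.75, 13.6 and 8.55 FPKM, Alpl at 12.8, 0.4475 and 0.0518, and Sp7 at 8.12, 0.527 and 0.187. Between the libraries in growth medium, Bglap2 alone was lower in the shKSRP-labelled one. The 3 hepatocyte markers, of a cell type with high cholesterol synthesis, were at 0 in every library. Adipocyte markers summed to 5.17 FPKM in the BMP2 library, 0.539 in the shKSRP-labelled library and 0.628 in mock, nearly all from Fabp4, with Cidec at 0 throughout. Macrophage markers summed to 2.13 FPKM in the BMP2 library, 0.209 in the shKSRP-labelled library and 0.558 in mock, nearly all from Csf1r. The part of these marker levels in the results was not tested. In such bulk RNA, fewer cells of a type and less RNA per cell cannot be told apart.

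Of the 30 genes, 24 matched a promoter of 300 bases (250 before the start to 50 after it) in RefSeq's mouse assembly GRCm38.p6. The 7 that follow are printed 5′ to 3′ on the gene's own strand. Tm7sf2 (chr19:6067801-6068100, minus strand), Nsdhl (chrX:72918271-72918570, plus), Msmo1 (chr8:64733529-64733828, minus) and Cyp51 (chr5:4104648-4104947, minus) are shown as the genes with a promoter entry whose ratio of the BMP2 library to mock was highest. Ebp (chrX:8193463-8193762, minus) is shown for the lowest ratio, Nr1h2 (chr7:44553916-44554215, minus) for having none of the motifs, and Hmgcs1 (chr13:119690101-119690400, plus) for its sterol regulatory element. Capitals mark CCAAT, the site read by NF-Y, on either strand (ATTGG on the other) and the sterol regulatory element motif TCACNCCAC.
Tm7sf2: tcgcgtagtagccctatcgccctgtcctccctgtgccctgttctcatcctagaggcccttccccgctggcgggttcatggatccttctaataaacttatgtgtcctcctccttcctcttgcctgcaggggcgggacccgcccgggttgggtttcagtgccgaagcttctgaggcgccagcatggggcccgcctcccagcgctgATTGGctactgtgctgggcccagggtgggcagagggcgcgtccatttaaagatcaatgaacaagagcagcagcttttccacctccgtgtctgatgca
Nsdhl: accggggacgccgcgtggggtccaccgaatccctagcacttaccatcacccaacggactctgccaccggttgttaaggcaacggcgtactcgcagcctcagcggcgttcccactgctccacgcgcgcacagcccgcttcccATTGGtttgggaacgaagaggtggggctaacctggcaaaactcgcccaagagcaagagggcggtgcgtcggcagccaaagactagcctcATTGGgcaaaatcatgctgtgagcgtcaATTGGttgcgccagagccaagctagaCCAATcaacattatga
Msmo1: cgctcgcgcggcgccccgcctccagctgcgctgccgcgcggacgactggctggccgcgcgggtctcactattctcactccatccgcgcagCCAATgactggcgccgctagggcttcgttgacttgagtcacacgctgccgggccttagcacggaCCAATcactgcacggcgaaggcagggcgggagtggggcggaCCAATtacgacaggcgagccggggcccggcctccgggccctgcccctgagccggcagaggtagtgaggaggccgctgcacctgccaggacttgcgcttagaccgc
Cyp51: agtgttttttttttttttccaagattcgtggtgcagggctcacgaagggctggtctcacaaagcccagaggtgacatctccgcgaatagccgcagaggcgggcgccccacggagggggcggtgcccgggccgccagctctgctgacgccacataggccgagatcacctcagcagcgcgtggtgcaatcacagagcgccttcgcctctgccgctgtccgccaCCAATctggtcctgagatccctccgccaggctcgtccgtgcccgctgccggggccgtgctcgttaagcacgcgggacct
Ebp: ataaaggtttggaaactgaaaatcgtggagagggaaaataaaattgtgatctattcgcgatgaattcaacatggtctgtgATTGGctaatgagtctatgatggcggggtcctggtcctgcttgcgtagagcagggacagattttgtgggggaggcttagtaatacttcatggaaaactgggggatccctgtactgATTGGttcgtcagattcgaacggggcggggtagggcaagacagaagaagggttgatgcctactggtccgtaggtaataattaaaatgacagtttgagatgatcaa
Nr1h2: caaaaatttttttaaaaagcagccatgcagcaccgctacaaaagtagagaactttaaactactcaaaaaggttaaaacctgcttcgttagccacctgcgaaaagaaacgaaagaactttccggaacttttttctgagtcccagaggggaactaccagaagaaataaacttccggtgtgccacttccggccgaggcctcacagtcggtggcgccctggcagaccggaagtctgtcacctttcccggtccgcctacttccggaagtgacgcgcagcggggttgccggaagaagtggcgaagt
Hmgcs1: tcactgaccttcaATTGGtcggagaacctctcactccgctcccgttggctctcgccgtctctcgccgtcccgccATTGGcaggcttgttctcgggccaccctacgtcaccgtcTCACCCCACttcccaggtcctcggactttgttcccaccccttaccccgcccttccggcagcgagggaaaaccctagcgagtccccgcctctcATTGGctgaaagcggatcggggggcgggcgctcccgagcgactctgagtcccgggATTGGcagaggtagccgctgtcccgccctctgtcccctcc

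CCAAT, on either strand, was in a promoter of 20 of the 24 genes (83.3%), against 43.6% of the 9061 compared genes with a promoter and 41.1% of all 27025 genes in the table. Among the printed promoters of high-ratio genes, Nsdhl holds 4 copies, Msmo1 3, and Tm7sf2 and Cyp51 1 each, beside 2 in Ebp, with the lowest ratio. Mvk, which was not called higher, holds 5. Of the 12 genes called higher in the BMP2 library than in mock, 11 held CCAAT (91.7%), and of the 12 others, 9 did (75.0%). Among all compared genes called higher in the BMP2 library, 40.3% held it. GGGCGG, the Sp1 motif, was in 22 of the 24 (91.7%), against 70.6% of compared genes. TCACNCCAC was in Hmgcs1 alone of the 24 (4.17%), against 1.32% of compared genes, and no match overlapped another. Of the 44 CCAAT matches in these promoters, 17 (38.6%) began 150 to 50 bases before the start, against 46.2% of 7012 matches over all compared genes. Such matches describe letters in a window and are not shown to be bound sites.

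Against mock, the BMP2 library had higher FPKM for most enzymes of the synthesis pathway, from Idi1 and Fdps to Cyp51, Msmo1 and Nsdhl, and for the regulators Insig1 and Srebf2. Of the 27 compared genes, 15 were higher and none lower, where 9.21% of all compared genes were higher and 8.95% lower. The median log2 ratio was 1.16, against 0.03 over all compared genes, and all 26 genes above 0 in both libraries had a ratio above 0, the smallest being Ebp's 0.01 and the largest that of Fdps, 2.12. In at least 1 of 12 alternatives Ebp, Scap and Npc2 had a log2 ratio below 0 (lowest -0.20 for Ebp, -0.25 for Scap and -0.02 for Npc2). Of the 17 compared synthesis enzymes, 12 were among the 15. The call of Acat2 rests on a listing at 0 in mock. The medium and the BMP2 changed together between these libraries, and serum is itself a source of cholesterol, so medium and BMP2 cannot be told apart.

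In the library labelled shKSRP, set against the same mock library, 2 of the 27 genes were higher and 5 lower, where 11.0% and 12.9% of all compared genes were. The median log2 ratio was -0.19, against -0.02 over all compared genes, with 11 of 24 genes above 0 in both libraries on the positive side and 13 on the negative. The higher genes were Srebf2 and Npc1, and the lower ones Pmvk, Idi1, Insig1, Fdft1 and Tm7sf2, the last 2 from listings at 0. At a pseudocount of 5, 1 gene was higher and 3 lower. Neither of the 2 higher genes kept its call in all of the alternatives, and of the 5 lower genes 2 did, Fdft1 and Tm7sf2, which rest on listings at 0. Both comparisons use the same mock library, so their values are given side by side and not as separate evidence. The BMP2 library and the library labelled shKSRP differ in medium, BMP2 and transfection at once. The log2 ratio between them is the difference of the 2 ratios to mock, so it is not separate evidence either. In the BMP2 library 17 genes were higher than in the library labelled shKSRP and none lower, where 8.66% and 6.07% of all compared genes were. Of the 17, 3 rest on listings at 0. Of these 17, 13 kept their call in all of the alternatives that compared them. The 13 include Acat2, Fdft1 and Tm7sf2, whose calls rest on listings at 0 and pass at any pseudocount used. The median log2 ratio there was 1.69, against 0.02. The BMP2 library held the highest level of 20 of the 24 compared genes above 0 in all 3 libraries (83.3%, against 30.3% of 10701 such genes). Mock held the highest level of none of them (36.3% of all).

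**Figure D1:**
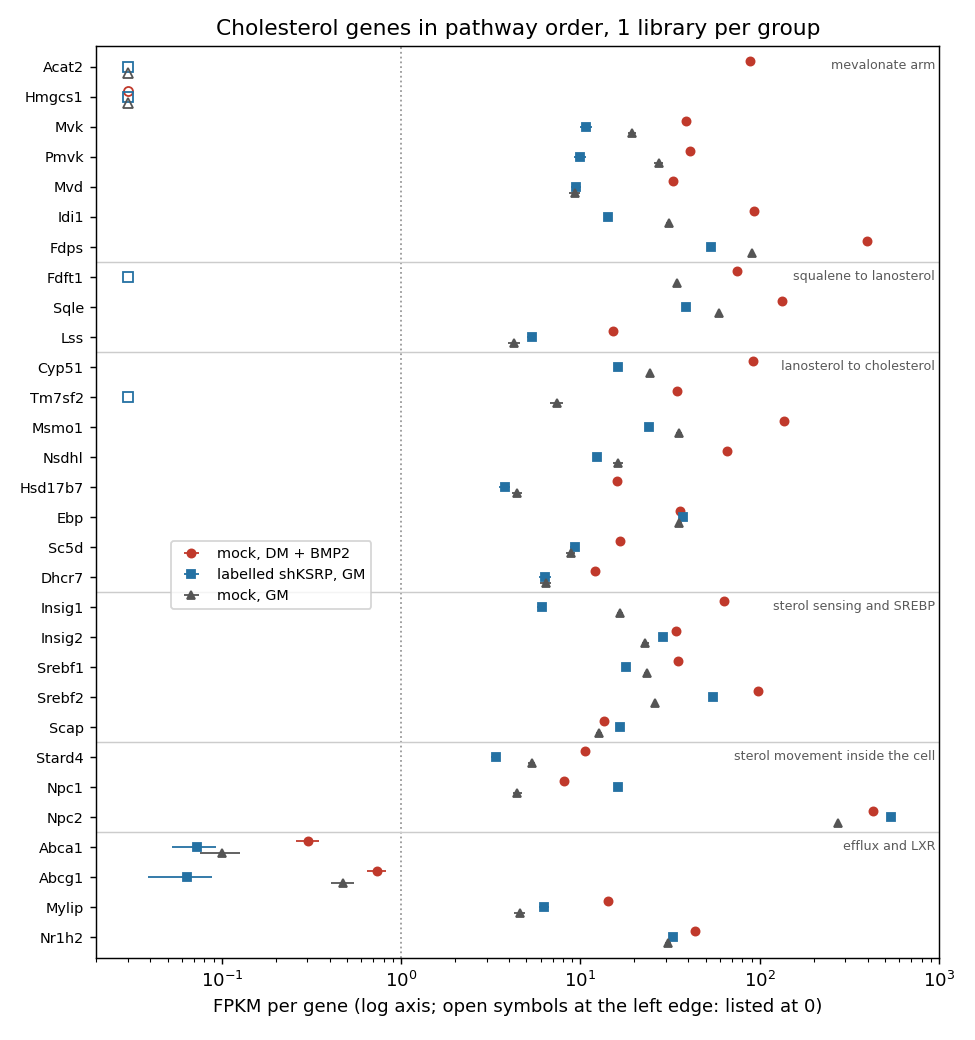
FPKM of each of the 30 genes (log axis) in the BMP2 library (red circles), the library labelled shKSRP (blue squares) and mock (grey triangles), in pathway order from the top, with grey lines between roles and a dotted line at 1 FPKM. Bars are half-widths of the deposited 95% interval, open symbols at the left edge are listings at 0, and the red circle is rightmost at nearly every synthesis enzyme while Ebp's 3 symbols coincide.

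In the mevalonate arm, the largest amounts were of Fdps, the synthase that makes farnesyl diphosphate for sterols and for the isoprenoid branch (chr3:88897510-88905867 in mm9, minus strand). Fdps was at 394 ± 4.8 FPKM in the BMP2 library, 53.2 ± 1.7 in the shKSRP-labelled library and 90.0 ± 2.3 in mock. All of it was on the RefSeq transcript in each library. This made 4.38 ± 0.12 times mock for the BMP2 library, rank 116 of 10907 genes above 0 in both, and 0.591 ± 0.024 times for the library labelled shKSRP. Idi1, the isomerase of isopentenyl diphosphate, was at 92.6 ± 1.5 FPKM in the BMP2 library, 14.3 ± 0.54 in the shKSRP-labelled library and 31.1 ± 1.1 in mock. Its ratios to mock were 2.98 ± 0.11 for the BMP2 library and 0.459 ± 0.024 for the shKSRP-labelled library, but in mock 23.8 FPKM of the 31.1 sat on an assembled transcript of 2 exons and 2084 nt and 7.21 on the RefSeq transcript. On RefSeq transcripts alone, the shKSRP-labelled ratio to mock turns round, from a log2 of -1.07 to 0.89.

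The 3 enzymes that act on mevalonate before Idi1 split in how they stood. Mvd, the decarboxylase that ends this stretch, was at 32.8 ± 1.1 FPKM in the BMP2 library, 9.45 ± 0.57 in the shKSRP-labelled library and 9.30 ± 0.67 in mock. Its BMP2 ratio was 3.52 ± 0.28, and the intervals of the libraries in growth medium overlapped. Mvk, the mevalonate kinase, was at 38.6 ± 1.3 FPKM in the BMP2 library, 10.8 ± 0.77 in the shKSRP-labelled library and 19.4 ± 0.89 in mock. Its log2 ratios to mock, 0.96 for the BMP2 library and -0.79 for the shKSRP-labelled library, both stopped short of the 2-fold rule. The BMP2 log2 ratio passes it with libraries scaled to the same sum of FPKM (1.21) and with the length trend removed (1.09), and that of the shKSRP-labelled library passes it on RefSeq transcripts alone (-1.38), since 3.95 of its 10.8 FPKM lay on assembled transcripts. Pmvk, the phosphomevalonate kinase, was at 40.7 ± 1.6 FPKM in the BMP2 library, 9.998 ± 0.74 in the shKSRP-labelled library and 27.4 ± 1.6 in mock. Pmvk was the synthesis enzyme with the lowest ratio of the library labelled shKSRP to mock, 0.365 ± 0.034, among those above 0 in both, and its BMP2 ratio was 1.49 ± 0.10. Of the mock level, 8.41 FPKM lay on an assembled transcript. On RefSeq transcripts alone the log2 ratio of Pmvk in the library labelled shKSRP to mock is -0.86 in place of -1.37, short of the rule and above that of Mvk, and its BMP2 log2 ratio is 1.06 in place of 0.56, past the rule. With the length trend removed, the log2 ratio of the library labelled shKSRP is -0.9.

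Acat2, the cytosolic thiolase that makes acetoacetyl-CoA, was at 87.8 ± 1.7 FPKM in the BMP2 library, and both libraries from growth medium list it at 0. Its transcript carries the files' mark for full read support at both listings of 0, and it shares its Cufflinks locus with its neighbour Acat3, so no fold is given. Hmgcs1, the synthase that makes HMG-CoA, was listed at 0 in all 3 libraries. In these mm9 files its RefSeq transcript stands only on 2 copies on unplaced sequence of chromosome 13, so no level can be read from it.

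From farnesyl diphosphate to lanosterol, all 3 genes were higher in the BMP2 library than in mock. Sqle, the squalene monooxygenase, was at 133 ± 1.8 FPKM in the BMP2 library, 39.0 ± 0.91 in the shKSRP-labelled library and 58.9 ± 1.2 in mock, ratios to mock of 2.26 ± 0.055 for the BMP2 library and 0.661 ± 0.020 for the shKSRP-labelled library. Lss, the lanosterol synthase, was at 15.2 ± 0.57 FPKM in the BMP2 library, 5.35 ± 0.32 in the shKSRP-labelled library and 4.28 ± 0.31 in mock, with ratios to mock of 3.56 ± 0.29 for the BMP2 library and 1.25 ± 0.12 for the shKSRP-labelled library. Of the enzymes above 0 in both libraries, it had the highest ratio of the library labelled shKSRP to mock, and it stayed under 2-fold. Fdft1, the squalene synthase, was at 74.7 ± 1.0 FPKM in the BMP2 library, listed at 0 in the library labelled shKSRP, and at 34.4 ± 0.65 in mock. Its FPKM lay wholly on assembled transcripts of 5948 nt (BMP2 library) and 5927 nt (mock), longer than the RefSeq 2862 nt. They overlap 3690 bases of the opposite-strand gene Ctsb, which was at 395 FPKM in the BMP2 library, 371 in the shKSRP-labelled library and 449 in mock. The sources used here do not say whether the library protocol keeps strand, so fragments of the 2 genes may not be separable. Where Fdft1 is listed at 0 it too carries full read support.

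Of the 8 enzymes from lanosterol to cholesterol, 5 were higher in the BMP2 library than in mock and 3 were not. Msmo1, the C4 methylsterol oxidase, was at 136 ± 2.8 FPKM in the BMP2 library, 24.2 ± 0.90 in the shKSRP-labelled library and 35.4 ± 1.3 in mock. Its ratios to mock were 3.85 ± 0.16 for the BMP2 library and 0.685 ± 0.035 for the shKSRP-labelled library. Cyp51, the lanosterol 14-alpha demethylase, was at 92.2 ± 1.2 FPKM in the BMP2 library, 16.2 ± 0.48 in the shKSRP-labelled library and 24.4 ± 0.65 in mock, with ratios of 3.78 ± 0.11 for the BMP2 library and 0.663 ± 0.026 for the shKSRP-labelled library. These 2 enzymes, which act close together, had nearly the same pair of ratios at different levels. Nsdhl, the sterol dehydrogenase that works with Msmo1, was at 65.6 ± 1.8 FPKM in the BMP2 library, 12.4 ± 0.58 in the shKSRP-labelled library and 16.3 ± 1.0 in mock, ratios of 4.03 ± 0.28 for the BMP2 library and 0.760 ± 0.059 for the shKSRP-labelled library. With RefSeq transcripts alone its shKSRP-labelled log2 ratio to mock goes from -0.37 to 1.34, since 8.58 and 3.41 FPKM of the mock level lie on assembled transcripts and none of the level in the library labelled shKSRP does.

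Hsd17b7, the ketosteroid reductase that completes the C4 demethylation complex with Msmo1 and Nsdhl, was at 16.0 ± 0.48 FPKM in the BMP2 library, 3.77 ± 0.25 in the shKSRP-labelled library and 4.45 ± 0.29 in mock. Its BMP2 ratio to mock, 3.58 ± 0.26, was close to those of its partners in the complex. Tm7sf2, a sterol 14-reductase, had the highest FPKM ratio of the BMP2 library to mock among the synthesis enzymes, 4.65 ± 0.41, with 34.4 ± 1.3 FPKM in the BMP2 library and 7.39 ± 0.59 in mock. It was listed at 0, with full read support, in the library labelled shKSRP, and shares its locus with Vps51, which was at 19.0 FPKM in the BMP2 library, 22.5 in the shKSRP-labelled library and 14.6 in mock.

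The late enzymes were flatter. Ebp, the sterol isomerase, was at 35.9 ± 1.3 FPKM in the BMP2 library, 37.2 ± 1.1 in the shKSRP-labelled library and 35.7 ± 1.2 in mock, and the 3 intervals overlap. Sc5d, the sterol desaturase, was at 16.6 ± 0.73 FPKM in the BMP2 library, 9.26 ± 0.53 in the shKSRP-labelled library and 8.83 ± 0.54 in mock, and Dhcr7, which takes 7-dehydrocholesterol to cholesterol, at 12.1 ± 0.56 FPKM in the BMP2 library, 6.38 ± 0.47 in the shKSRP-labelled library and 6.39 ± 0.47 in mock. Ratios of the BMP2 library to mock, 1.88 ± 0.14 for Sc5d and 1.89 ± 0.16 for Dhcr7, fell short of the rule. The libraries in growth medium did not differ beyond their intervals at either gene. Dhcr7 lay wholly on assembled transcripts in all 3 libraries.

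Summed over the 14 synthesis enzymes above 0 in all 3 libraries, FPKM came to 1122 in the BMP2 library, 251 in the shKSRP-labelled library and 372 in mock, which is 3.02 times mock for the BMP2 library and 0.676 times for the shKSRP-labelled library. The sum follows its largest term, Fdps. By stretch, the BMP2 library held 3.38 times the mock sum in the mevalonate arm, 2.35 times from squalene to lanosterol and 2.85 times from lanosterol to cholesterol. In the same order of stretches, the shKSRP-labelled library held 0.551, 0.701 and 0.833 times the mock sum. The same sum over all 13062 genes above 0 in the 3 libraries was 0.834 times mock in the BMP2 library and 0.790 times in the shKSRP-labelled library, so both libraries have a lower total against which these ratios stand.

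**Figure D2:**
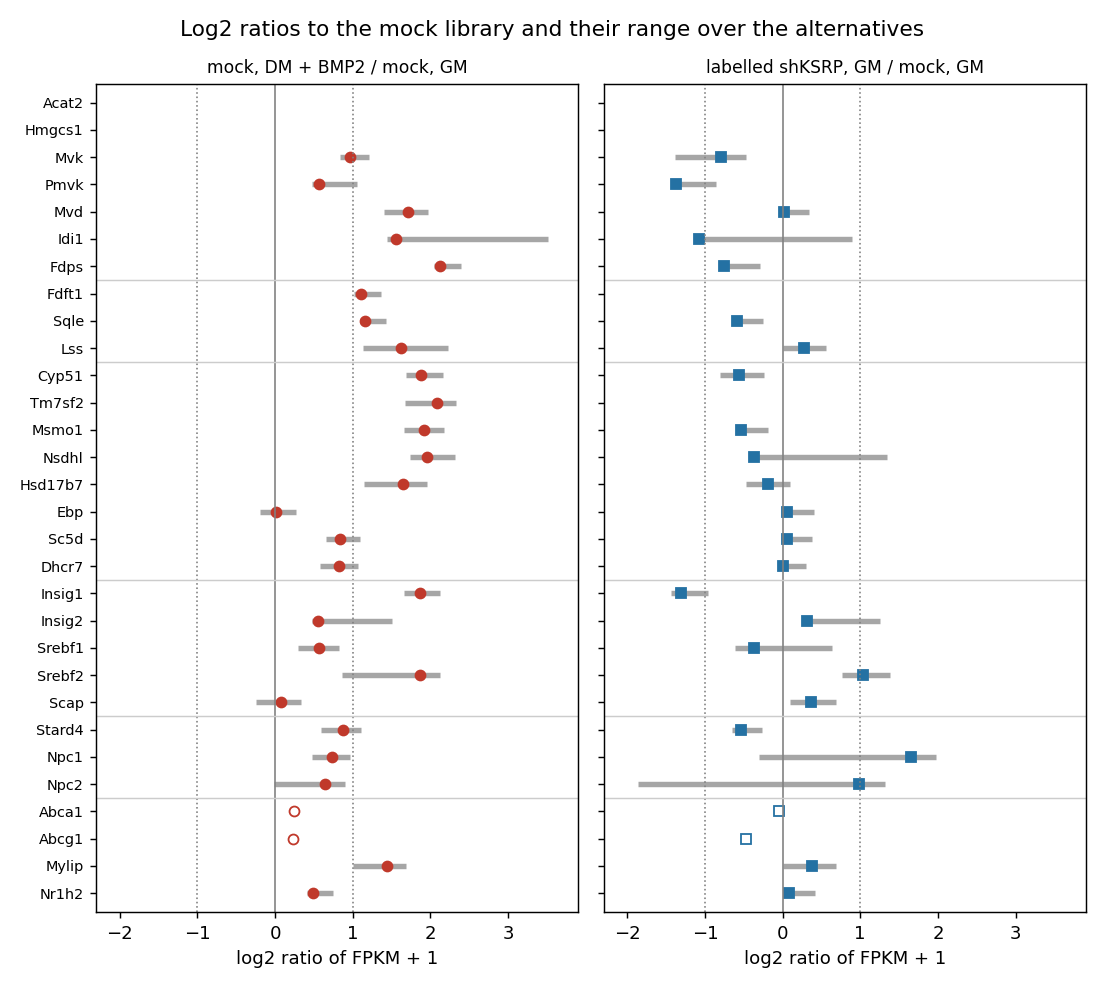
Log2 ratio of FPKM + 1 to mock for the BMP2 library (left, red circles) and the library labelled shKSRP (right, blue squares), genes in pathway order, with dotted lines at the 2-fold rule. Grey bars span the 12 alternative ways of computing the ratio, open symbols are genes under 1 FPKM throughout, no point is drawn against a listing at 0, and the long bars at Idi1, Nsdhl, Srebf1, Npc1 and Npc2 are those where RefSeq transcripts alone give another sign on the right.

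Among the regulators, the widest spread was that of Insig1 (chr5:28397952-28405202 in mm9, plus strand). Its protein holds back SREBP traffic when sterol is plentiful, and the gene is itself an SREBP target. Insig1 was at 63.0 ± 1.3 FPKM in the BMP2 library, 6.06 ± 0.37 in the shKSRP-labelled library and 16.6 ± 0.64 in mock, all on the RefSeq transcript. The BMP2 library held 3.80 ± 0.16 times the mock level and the library labelled shKSRP 0.366 ± 0.026 times. Between the BMP2 library and the library labelled shKSRP the ratio was 10.4 ± 0.66, the highest among the 24 compared genes above 0 in all 3. Its relative Insig2, which is not known as an SREBP target, was at 34.1 ± 0.97 FPKM in the BMP2 library, 28.7 ± 0.84 in the shKSRP-labelled library and 23.0 ± 0.96 in mock, ratios to mock of 1.48 ± 0.075 for the BMP2 library and 1.25 ± 0.064 for the shKSRP-labelled library. Of its mock level, 11.6 FPKM lay on an assembled transcript, and with RefSeq transcripts alone its log2 ratios to mock would be 1.50 for the BMP2 library and 1.26 for the shKSRP-labelled library, past the rule. Scap, the escort of SREBPs, was nearly level at 13.5 ± 0.53 FPKM in the BMP2 library, 16.6 ± 0.54 in the shKSRP-labelled library and 12.7 ± 0.44 in mock.

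Srebf2, which encodes SREBP-2, the main activator of cholesterol synthesis, was the regulator higher than mock in both libraries. It was at 97.3 ± 1.8 FPKM in the BMP2 library, 54.8 ± 0.83 in the shKSRP-labelled library and 26.2 ± 0.60 in mock. The BMP2 ratio to mock was 3.72 ± 0.11. Of the BMP2 level, 36.4 FPKM lay on a short assembled transcript of 4 exons and 1650 nt at the 3′ end of the gene. This short transcript lacked the files' mark for full read support. A further 12.6 FPKM lay on an assembled transcript of 20 exons and 4875 nt, which carried the mark. On the RefSeq transcript the levels were 48.3 FPKM in the BMP2 library, 54.8 in the shKSRP-labelled library and 26.2 in mock. The BMP2 log2 ratio to mock was then 0.86 in place of 1.86, with the short and the long assembled transcript left out. Keeping the assembled transcripts and dividing the gene's fragments by the same length in every library gave 1.48, past the rule. In the library labelled shKSRP, Srebf2 stood at 2.10 ± 0.058 times mock with all of it on RefSeq. Its log2 ratio there, 1.04, lay just past the rule. In the same comparison 4 of 14 synthesis enzymes had a log2 ratio above 0, the highest being 0.27 for Lss. Of all compared genes above 0 in both libraries, 5322 of 10821 did. On RefSeq transcripts alone Idi1 (0.89) and Nsdhl (1.34) also lie above 0. A link between Srebf2 and these enzymes was not tested. Between the BMP2 library and the library labelled shKSRP, the Srebf2 log2 ratio of 0.82 becomes -0.18 on RefSeq transcripts alone.

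Srebf1 encodes SREBP-1, which acts more on fatty acid genes and is made as SREBP-1a and SREBP-1c from different first exons. Its total was 35.0 ± 0.98 FPKM in the BMP2 library, 17.9 ± 0.49 in the shKSRP-labelled library and 23.4 ± 0.74 in mock, ratios to mock of 1.50 ± 0.063 for the BMP2 library and 0.765 ± 0.032 for the shKSRP-labelled library. On RefSeq transcripts alone the levels were 13.9 FPKM in the BMP2 library, 17.9 in the shKSRP-labelled library and 11.2 in mock. The log2 ratio of the library labelled shKSRP to mock is then 0.64 in place of -0.37, and that of the BMP2 library to the library labelled shKSRP -0.35 in place of 0.93. The libraries differed in which starts the assembly found. A transcript that began 10157 bases downstream of the RefSeq start held 12.2 ± 0.60 FPKM (34.7% of the gene) in the BMP2 library, and another that began 10167 bases downstream held 12.3 ± 0.56 FPKM (52.3%) in mock. None was assembled in the library labelled shKSRP, where all 17.9 FPKM lay on the RefSeq transcript. The BMP2 library alone had a transcript that began 1962 bases upstream, at 8.998 ± 0.55 FPKM (25.7%). In RefSeq's GRCm38.p6 promoter table Srebf1 has 3 starts, with the middle start lying 10156 bases from the downstream and 1954 from the upstream start, nearly the distances seen in the assembled transcripts. The starts in the files carry no replicate, and each library was assembled on its own.

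**Figure D3:**
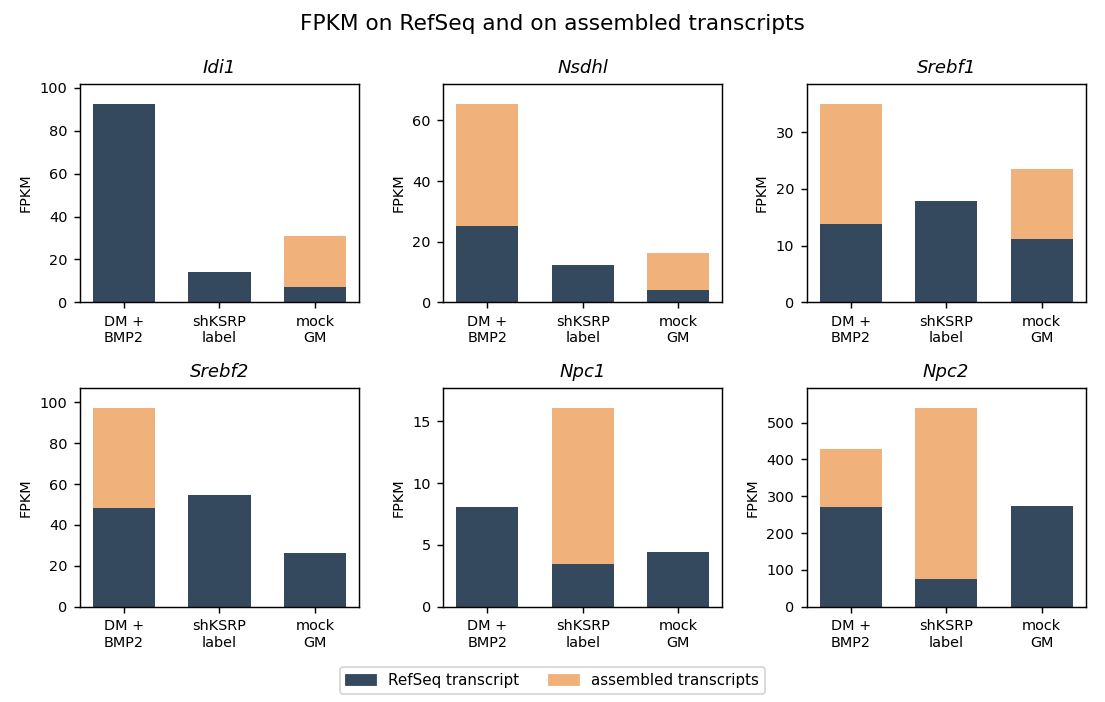
FPKM of 6 genes in the BMP2, shKSRP-labelled and mock libraries, split into the RefSeq transcripts (dark) and transcripts assembled from that library's reads (orange), as stacked bars from 0. The orange part differs between libraries, from none in the library labelled shKSRP at Srebf1 and Srebf2 to most of Npc1 and Npc2 there.

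Among the genes that move sterol inside the cell, the 2 lysosomal ones stood apart from synthesis by summed FPKM. Their sums were highest in the library labelled shKSRP, an order that rests on assembled transcripts. Npc2, the soluble protein that hands cholesterol to NPC1 in the lysosome, was the most abundant of the 30 genes, at 428 ± 3.8 FPKM in the BMP2 library, 541 ± 8.1 in the shKSRP-labelled library and 274 ± 2.3 in mock. Ratios to mock were 1.56 ± 0.019 for the BMP2 library and 1.97 ± 0.034 for the shKSRP-labelled library. Npc1, the membrane protein that exports that cholesterol, was at 8.04 ± 0.34 FPKM in the BMP2 library, 16.1 ± 0.50 in the shKSRP-labelled library and 4.45 ± 0.26 in mock, with ratios of 1.81 ± 0.13 for the BMP2 library and 3.62 ± 0.24 for the shKSRP-labelled library. In the library labelled shKSRP, most of both levels lay on assembled transcripts. For Npc1, 12.7 of the 16.1 FPKM lay on an assembled transcript of 25 exons and 4945 nt, beside 25 exons and 5209 nt in RefSeq. For Npc2, 324 FPKM lay on a transcript of 2 exons and 646 nt, with 74.9 on RefSeq. On RefSeq transcripts alone, the log2 ratios of the library labelled shKSRP to mock would be -0.30 for Npc1 and -1.86 for Npc2, of the other sign. Another alternative kept the assembled transcripts and counted fragments over a fixed gene length. The log2 ratio of Npc1 then stays at 1.6, while that of Npc2 turns to -0.51. Stard4, a soluble sterol carrier and SREBP-2 target, followed the synthesis genes instead, at 10.6 ± 0.41 FPKM in the BMP2 library, 3.36 ± 0.19 in the shKSRP-labelled library and 5.35 ± 0.25 in mock. Its ratios to mock, 1.98 ± 0.12 for the BMP2 library and 0.629 ± 0.046 for the shKSRP-labelled library, were under 2-fold, and its FPKM was wholly on assembled transcripts.

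The efflux transporters stayed under 1 FPKM. Abca1, which loads cholesterol onto apolipoprotein A-I, was at 0.303 ± 0.043 FPKM in the BMP2 library, 0.0725 ± 0.020 in the shKSRP-labelled library and 0.101 ± 0.025 in mock. Abcg1, which loads it onto HDL, was at 0.736 ± 0.090 FPKM in the BMP2 library, 0.0635 ± 0.025 in the shKSRP-labelled library and 0.476 ± 0.072 in mock. Neither reached 1 FPKM in any library, so neither was compared, although their intervals put the BMP2 library above both others at each gene. Mylip, an LXR target that marks lipoprotein receptors for degradation, was at 14.2 ± 0.61 FPKM in the BMP2 library, 6.29 ± 0.42 in the shKSRP-labelled library and 4.60 ± 0.32 in mock, ratios of 3.08 ± 0.25 for the BMP2 library and 1.37 ± 0.13 for the shKSRP-labelled library. Its BMP2 call is lost at a pseudocount of 5, where the log2 ratio rounds to 1.00, and its exons overlap those of another RefSeq transcript on the same strand, itself listed at 0 in all 3 libraries. Nr1h2, which encodes LXR-beta, was at 43.7 ± 1.5 FPKM in the BMP2 library, 32.7 ± 1.2 in the shKSRP-labelled library and 30.8 ± 1.2 in mock, with a BMP2 ratio of 1.42 ± 0.075 and overlapping intervals in growth medium.

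**Figure D4:**
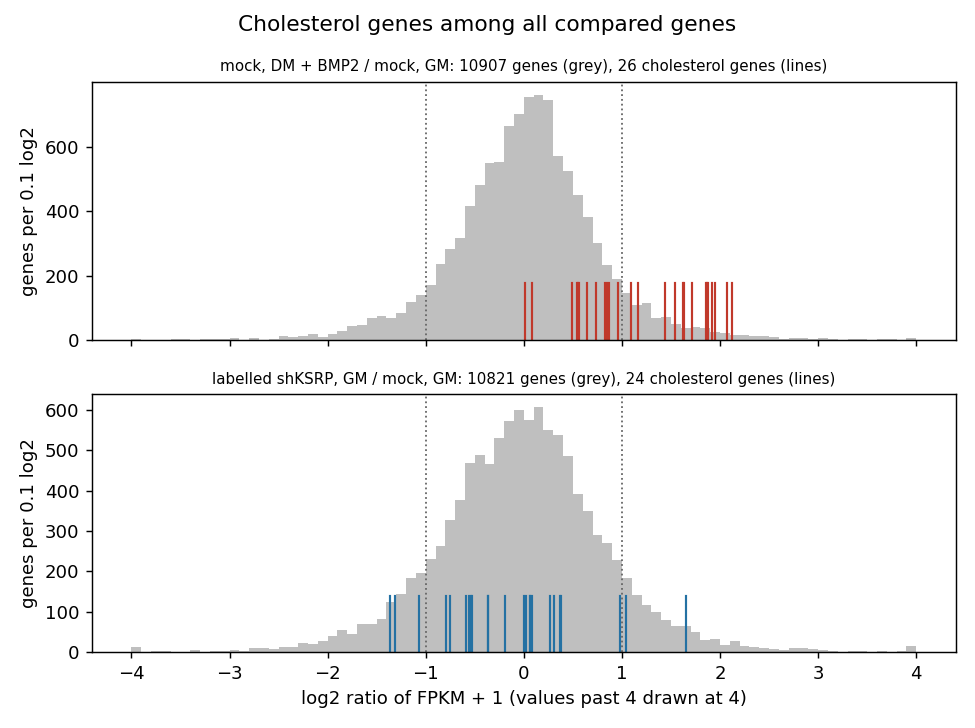
Histograms of the log2 ratio of FPKM + 1 for all compared genes above 0 in both libraries (grey; 10907 genes for the BMP2 library over mock, above, and 10821 for the library labelled shKSRP over mock, below), with each cholesterol gene as a coloured line. All 26 lines lie right of 0 in the upper panel, where Ebp, Scap and Npc2 do not in every alternative, while the 24 lines of the lower panel spread to both sides.

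Genes next to the pathway were counted in the same way. Their lists, too, were chosen with earlier results of these data known. Of 11 genes of the isoprenoid branch, which uses farnesyl diphosphate for prenylation, dolichol and ubiquinone, none was higher in the BMP2 library than in mock (9.21% of all compared genes were) and 2 were lower (8.95% of all), 1 of them from a listing at 0 (median log2 ratio -0.08, against 1.16 for the cholesterol genes and 0.03 for all compared genes). Pdss2, a subunit of the enzyme that makes the ubiquinone side chain, was at 3.51 ± 0.39 FPKM in the BMP2 library, 4.54 ± 0.40 in the shKSRP-labelled library and 12.1 ± 0.98 in mock, log2 ratios to mock of -1.54 for the BMP2 library and -1.25 for the shKSRP-labelled library. Fnta, the shared alpha subunit of the prenyltransferases, was at 87.3 ± 2.7 FPKM in the BMP2 library, 50.5 ± 1.3 in the shKSRP-labelled library and 63.4 ± 1.9 in mock. Rce1, the protease that trims prenylated proteins, was at 36.2 ± 1.6 FPKM in the BMP2 library, 20.9 ± 1.1 in the shKSRP-labelled library and 49.4 ± 2.1 in mock, with a log2 ratio of the library labelled shKSRP to mock of -1.20. In that comparison 3 of the 11 were lower (12.9% of all compared genes were), 1 of them from a listing at 0, and none higher (11.0% of all).

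Of 8 genes that process SREBPs or degrade sterol-sensing proteins, none was higher and 1 was lower, from a listing at 0, in each comparison with mock. Of all compared genes, 9.21% were higher and 8.95% lower in the BMP2 library, and 11.0% and 12.9% in the library labelled shKSRP. Such counts in 8 genes are near those shares. Median log2 ratios were -0.02 for the BMP2 library and -0.13 for the library labelled shKSRP. Erlin1, a membrane protein of sterol-regulated degradation, was at 14.1 ± 0.54 FPKM in the BMP2 library, 12.3 ± 0.55 in the shKSRP-labelled library and 22.8 ± 0.89 in mock. Erlin2, a partner of Erlin1, was at 16.3 ± 0.54 FPKM in the BMP2 library, 20.4 ± 0.55 in the shKSRP-labelled library and 13.2 ± 0.53 in mock.

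Of 22 genes of sterol transport, esterification, receptors and oxysterols, 17 were compared. None of them was higher or lower in the BMP2 library than in mock (median 0.12), where 9.21% of all compared genes were higher and 8.95% lower. In the library labelled shKSRP 2 were higher and 2 lower than mock (median 0.10), close to the 11.0% higher and 12.9% lower of all compared genes. The 2 lower were Tmem97, at 34.3 FPKM in that library and 75.8 in mock (log2 ratio -1.12), and Lrp8, at 0.968 and 3.05 (-1.04). Vldlr, a lipoprotein receptor, was at 1.08 ± 0.11 FPKM in the BMP2 library, 4.24 ± 0.22 in the shKSRP-labelled library and 0.759 ± 0.092 in mock, a log2 ratio of 1.57 for the library labelled shKSRP. Cav1, the cholesterol-binding caveolar protein, was at 146 ± 2.5 FPKM in the BMP2 library, 202 ± 2.5 in the shKSRP-labelled library and 80.7 ± 1.7 in mock, log2 ratios to mock of 0.85 for the BMP2 library and 1.32 for the shKSRP-labelled library. Lipa, the lysosomal acid lipase that frees cholesterol from its esters, was at 31.5 ± 0.92 FPKM in the BMP2 library, 35.5 ± 0.84 in the shKSRP-labelled library and 17.4 ± 0.61 in mock, log2 ratios of 0.82 for the BMP2 library and 0.99 for the shKSRP-labelled library.

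Listings at 0 among the cholesterol genes were Hmgcs1 in the BMP2 library, Acat2, Hmgcs1, Fdft1 and Tm7sf2 in the library labelled shKSRP, and Acat2 and Hmgcs1 in mock. In the library labelled shKSRP 3 of the 4 carry full read support, and in mock 1 of the 2. Over all compared genes the share of listings at 0 with full read support was 77.6% in the BMP2 library, 77.8% in the shKSRP-labelled library and 71.6% in mock. These zeros were therefore read as listed at 0 and not as absence of the mRNA.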

How the data were processed

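Polyadenylated RNA was sequenced from 1 library per group, after selection on oligo(dT) beads in 2 rounds, gel sizing and 18 cycles of PCR without molecular identifiers, per the labels' protocols; intervals therefore cover counting and assignment error only. Per the submitters' processing notes, the tools were Cufflinks 1.3.0, TopHat 1.4.1, Bowtie 0.12.7 and CASAVA 1.8, and the build was mm9; roles and settings are not stated there. The authors deposited a Cufflinks transcript file per library, with FPKM, other text attributes and its 95% interval in 1 field, per the file headers and attributes. The deposited score of each transcript, relative to the most abundant one at its locus, was not used. Each library was assembled on its own, so FPKM can move between RefSeq and assembled transcripts of a gene.

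RefSeq accessions took symbols from a RefSeq table of GRCm38.p6 (27563 of 28222), used for names alone, and otherwise from a GENCODE table, the files' own names, or kept the accession. FPKM of a gene was the sum of its RefSeq transcripts and of assembled transcripts of the same locus (at a shared locus, those overlapping its exons most). Half-widths were taken from the upper bound of the interval and added in squares, with transcripts treated as independent. Differences are log2((FPKM + 1)/(FPKM + 1)) with a pseudocount of 1 FPKM, which understates the change of low genes; ratios printed with ± are of FPKM without pseudocount. Calls at 2-fold are a rule of size, not a test, so no p-value is given. Fragments per library were estimated from the interval widths of long, expressed transcripts (minimum 2000 nt and 5 FPKM). The calling step was tested on simulated libraries, made as copies of mock with noise drawn from the interval widths. They held no spread between cultures, listings at 0 or moves between RefSeq and assembled transcripts, so that test does not cover these limits. Coordinates of genes are those of the files, in mm9, and promoters are in GRCm38.p6; none was converted. Python 3.11.15 with pandas 2.3.3, NumPy 2.4.6, statsmodels 0.14.6 and matplotlib 3.10.9 was used.

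The cholesterol genes, the other pathway lists and the marker lists were chosen with earlier results of these data known. All 30 cholesterol genes and Khsrp are named. In each other list, the 2 genes with the largest log2 ratio in either comparison with mock are named, among those above 0 in both libraries. Tmem97 and Lrp8 are named besides, as the transport and receptor genes lower in the library labelled shKSRP than in mock. No gene of the list was left out, and Cd68 of the macrophage markers matched no symbol. Alternatives were 2 other pseudocounts, 2 other filters on low values, RefSeq transcripts alone, the most abundant RefSeq transcript alone, a fixed gene length, 2 scalings of the libraries, removal of a trend over transcript length, genes above 0 in all 3 libraries only, and genes at shared loci left out.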

Additional observations from a re-analysis of the deposited data

How the results depend on the processing

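No paired analysis was possible because each group has 1 library, and for the same reason no library could be left out. Over the 12 alternatives, the number of cholesterol genes higher in the BMP2 library than in mock ran from 12 to 19 (15 in the report), with none lower in any, and 13 of the 15 kept their call in every alternative that compared them; Srebf2 and Mylip did not. For the library labelled shKSRP against mock 0 of the 2 higher and 2 of the 5 lower genes did (Fdft1 and Tm7sf2, both from listings at 0), and for the BMP2 library against the library labelled shKSRP 13 of 17. The 13 of 15 include Acat2, and the 13 of 17 include Acat2, Fdft1 and Tm7sf2. Those calls rest on listings at 0, which pass the rule at any pseudocount used. Against the library labelled shKSRP, 14 to 17 genes were higher in the BMP2 library (17 in the report), and Npc1 was the 1 gene lower, with libraries scaled to the same sum of FPKM. For the library labelled shKSRP against mock, 1 gene was higher at a pseudocount of 5, with libraries scaled to the same median and with the length trend removed, against 2 in the report, and 3 were lower at a pseudocount of 5 and among genes above 0 in all 3 libraries, against 5. The call of Srebf2 there lies at the threshold. Scaling to the same sum of FPKM moved the median log2 ratio of all genes to 0.27 for the BMP2 library and 0.28 for the library labelled shKSRP, each against mock.

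With RefSeq transcripts alone, or only the most abundant of them, the log2 ratio of the library labelled shKSRP to mock changed sign for Idi1 (0.89), Nsdhl (1.34), Srebf1 (0.64), Npc1 (-0.30) and Npc2 (-1.86), and that of the BMP2 library to the library labelled shKSRP for Srebf1 (-0.35), Srebf2 (-0.18), Npc1 (1.03) and Npc2 (1.84). By construction these alternatives drop the assembled transcripts. When a gene's fragments were set over 1 fixed length, which keeps them, Npc2 also changed sign in both comparisons (-0.51 and 0.98). Of the log2 ratios of single genes, 290 of 309 for the BMP2 library against mock, 281 of 309 for the library labelled shKSRP against mock and 293 of 309 for the BMP2 library against the library labelled shKSRP kept their direction and their side of the 2-fold rule, and 7, 13 and 9 in the same order changed sign. Half-widths had a median of 3.3%, 4.2% and 4.4% of FPKM over the cholesterol genes in the BMP2, shKSRP-labelled and mock libraries, so the lack of replicates, not depth, sets what can be said. Longer transcripts had higher ratios to mock (Spearman 0.27 for the BMP2 library and 0.37 for the library labelled shKSRP, across 11463 genes, which are not independent replicates), with a median length of 2748 nt for the cholesterol genes and 2809 nt for all.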
